A study of Mus musculus with 20 samples.

Results

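Ribosomal protein genes encode the protein building blocks of the cytosolic ribosome, and 76 of them were measured in mouse liver out of 10793 genes with a mean normalized count of at least 100 in both sexes. They were taken by gene symbol: an Rpl or Rps symbol with a number and at most 1 further letter (a, x, l or y), or Rplp0, Rplp1, Rplp2 or Rpsa, which leaves out processed pseudogenes named with -ps and the S6 kinases. The symbol alone matched 83 rows, of which 80 were listed in the tables of both sexes, and 76 reached a mean of 100 in both. The members comprised 45 genes of the large (60S) subunit and 31 of the small (40S) subunit.

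The study used RNA-seq of liver from mice of 11 to 14 weeks, with 3 Midn XTR (WT) and 3 Midn TR (Midn-T) samples in each sex. Midn encodes a protein of the nucleus that helps carry proteins to the proteasome. All groups derive from the Midn XTR gene trap made in C57BL/6J embryos, which is inverted into the trapped form by Cre under the Albumin promoter. The paper describes the trap as selective for hepatocytes, and the state of the gene in other liver cells was not examined here. Whether the WT mice carried Cre was not given in the sources used here. ATAC-seq of 2 samples per genotype and sex was not used here.

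The measure is the authors' mean normalized count, which is the average of read counts after scaling for library depth over the 6 samples of a sex. WT and Midn-T samples are pooled in it, so a difference between the genotypes cannot be read from it and the targeted gene cannot check the labels. There is 1 value per sex and gene with no spread between animals, so no test was made. The depth of the libraries is unknown, and the values of the males and the females were normalized separately.

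Ribosomal proteins are made in equal numbers, because each mature ribosome holds mostly 1 copy of each. Their mRNAs begin with a stretch of pyrimidines (C and T in DNA letters), the 5′ terminal oligopyrimidine or TOP motif, through which growth signals from mTOR adjust their translation together. The liver makes large amounts of secreted protein and depends on a large ribosome pool. Because these genes are transcribed strongly, their mRNAs have been copied back into the genome many times, and mammalian genomes hold very many ribosomal protein pseudogenes.

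A promoter window from RefSeq (build GRCm38.p6, 250 bases before to 50 after the annotated start) was matched by symbol for 55 of the 76 members. A run of at least 7 pyrimidines on the gene's strand, between 25 bases before and 50 after the start, was present in 47 of these 55 (85.5%), against 10792 of 27025 promoters in the whole table (39.9%). The longest run had a median of 10 bases in the members and 6 bases in all promoters. A set of 8 windows of 30 bases follows, with the longest run in capitals as far as the window reaches (the last base of the run of Rpl7a lies past its end). They show the longest runs (Rpl7a and Rpl27a), those of the paralogs Rps27 and Rps27l, the shortest that still passed in a laminin receptor and a stalk gene (Rpsa and Rplp0), and members whose run was under 7 (Rpl22 and Rps28).
Rpl7a (chr2:26910783-26910812, plus strand): tcccccacaaTTCCCTCTTCTTTCTTTCTC
Rpl27a (chr7:109519181-109519210, plus strand): acttcgtgagCTCCTCCCTTTTCCCTTTCT
Rps27 (chr3:90213631-90213660, minus strand): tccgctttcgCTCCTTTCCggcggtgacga
Rps27l (chr9:66946054-66946083, plus strand): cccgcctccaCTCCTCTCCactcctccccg
Rpsa (chr9:120127776-120127805, plus strand): cggccgcccgTCCTTTCgcgctacccgggg
Rplp0 (chr5:115559468-115559497, plus strand): gaccgcctggTTCTCCTataaaaggcacac
Rpl22 (chr4:152325700-152325729, plus strand): cgacagccgaCTTCgccctgggaaaagcaa
Rps28 (chr17:33824564-33824593, minus strand): gtcccgaggaTTCCTgggtaccgcgtgcgg
The run of Rpl7a was 21 bases long and that of Rpl27a 20 bases. The longest run of Rpl22 had 4 bases and began 16 bases before the annotated start. That of Rps28 had 5 and began 21 bases before it. The runs are not aligned to the start: that of Rps27 began 2 bases before it and that of Rpsa 20 bases after it. A RefSeq start can lie away from the base at which liver transcripts begin, and no start sites were measured here.

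Other short motifs were searched in the 300-base windows on both strands. CCGGAAG, the core that ETS factors such as GABPA bind, was in 22 of 55 members (40%) and in 9.12% of all promoters. GGGCGG, the GC box, was in 33 of 55 members (60%) and in 35.9% of all. AAGATGG, the core of the YY1 motif, was in 8 of 55 members (14.5%) and in 6.48% of all. TATAAA was in 5 of 55 members (9.09%) and in 14.2% of all promoters. The 47 members with a pyrimidine run had a median level of 5997 normalized counts per kb of coding sequence in males. The 8 without it had 4874, and the median female over male ratios were 0.928 and 0.941. Coding sequence in levels per kb means the longest annotated one of a gene, which can exceed the canonical one.

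**Figure D1:**
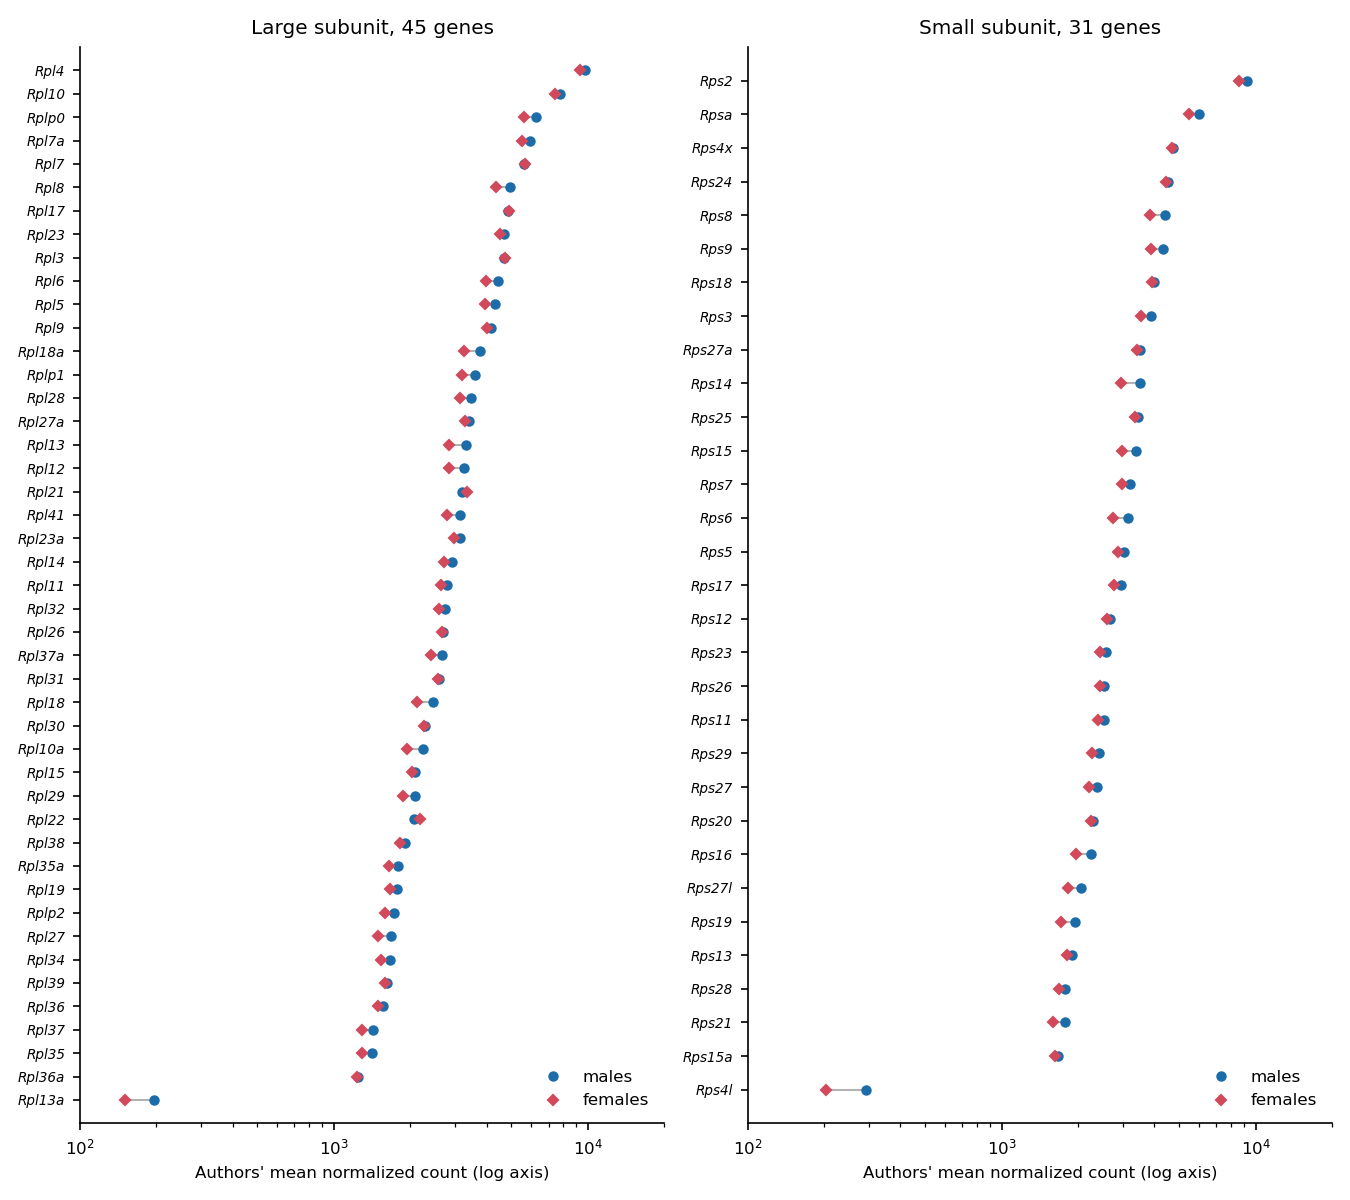
Authors' mean normalized counts (log axis) of the 76 ribosomal protein genes in males (circles) and females (diamonds), with large subunit genes on the left and small subunit genes on the right, ordered by the male mean. All but Rpl13a and Rps4l lie above 1000 in both sexes, and most female means sit just to the left of the male ones.

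Together the members held 0.805% of the summed mean normalized counts in males and 0.741% in females. Their mean normalized counts had a median of 2848 in males and 2697 in females. The lower and upper quartiles were 2064 and 3906 in males and 1859 and 3616 in females. In each sex 74 of the 76 exceeded 1000, and those 74 spanned 7.78 times from lowest to highest in males and 7.52 times in females.

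Rpl4, a large subunit protein that lines the exit tunnel for the new protein chain, had the highest mean, 9722 in males and 9276 in females. Rps2, a protein near the mRNA entry of the small subunit, followed at 9214 and 8589. Rpl10, which joins the large subunit late and whose gene is X-linked, had 7789 and 7455. The 2 lowest members stood apart from the rest. Rpl13a, a large subunit protein also known for a role in inflammatory translation control, had a mean of 196.5 in males and 151 in females. Rps4l, a retrocopy of the X-linked Rps4x with a single exon at chr6:148256098-148257431 (GRCm39, plus strand), had 293 in males and 203 in females. The next member, the X-linked Rpl36a, had 1250 in males and 1233 in females, so the male means jumped 4.27 times between Rps4l and Rpl36a.

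Just outside the limit of 100 lay Rps10, a protein of the small subunit, with 45.9 in males and 51.3 in females. Rpl32l and Rpl6l, which the annotation gives as processed pseudogenes, had 30.8 and 18.0 in males and 27.6 and 16.2 in females. Rpl24, a large subunit protein at the bridge to the small subunit, had 11.6 in males and 11.8 in females. The other three rows were in the male table alone: Rpl3l, the striated muscle paralog of Rpl3, at 2.14, Rpl39l, a testis paralog of Rpl39, at 0.276, and Rpl10l, a testis paralog of Rpl10, listed at 0.

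Rps10, Rpl24 and Rpl13a are core ribosomal proteins, yet their means were far below those of their partners. The median male mean of the 75 members without shared coding exons was 2912, which is 14.8 times that of Rpl13a, 63.4 times that of Rps10 and 251 times that of Rpl24. In females the same multiples were 18.1, 53.2 and 232. The annotation of these genes was compared after their values were seen. In GENCODE M39 (build GRCm39) all 3 share their exons with a second gene on the same strand. Rpl13a lies at chr7:44774982-44778263 on the minus strand, Rpl24 at chr16:55786638-55791798 on the plus strand and Rps10 at chr17:27849390-27855643 on the minus strand. Of the canonical coding bases, 97.5% of Rpl13a lay on exons of Gm45713, 83.4% of Rpl24 on exons of Gm28037 and 92.1% of Rps10 on exons of Gm49804. Each of the 3 partner genes was listed at 0 in males and was not listed in the female table. In the 78 other rows of the symbol rule that are annotated as protein coding, 0 coding bases were shared in this way.

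Genes of the ribosome outside the symbol rule gave values on both sides. Rpl36al, a paralog of Rpl36a, had 66.2 in males and 51.4 in females, with 95.3% of its coding bases on exons of Gm49383, which was listed at 1.45 in males. Without shared coding exons, Rps3a1 had 5512 in males and 5128 in females, Rack1, a signalling scaffold on the small subunit, 4462 and 3963, and Fau, which encodes the small subunit protein eS30, 2393 and 2201. Rpl22l1 and Rpl7l1 shared no coding bases either and had lower means, 575 and 1434 in males and 493 and 1253 in females. Rps3a1 was added after its values were seen.

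Over all 21667 protein-coding genes of the male table with a canonical coding sequence, 586 (2.70%) had more than 50% of it on exons of another gene of their strand. The median male mean was 2.84 for these 586 and 75.2 for the rest. A mean of at least 100 was reached by 21.7% of the former and 47.8% of the latter. Both genes of an overlapping pair can be among the 586, silent partner genes included. These values therefore do not show what sharing does to the count of an expressed gene. The methods name HTSeq on uniquely mapped reads, and a read that fits 2 genes is left uncounted in HTSeq's usual setting. The setting used was not given in the sources used here, and the part of shared exons in the low means was not tested. The means of Rpl13a, Rpl24, Rps10 and Rpl36al are therefore given as deposited and are not read as transcript levels.

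**Figure D2:**
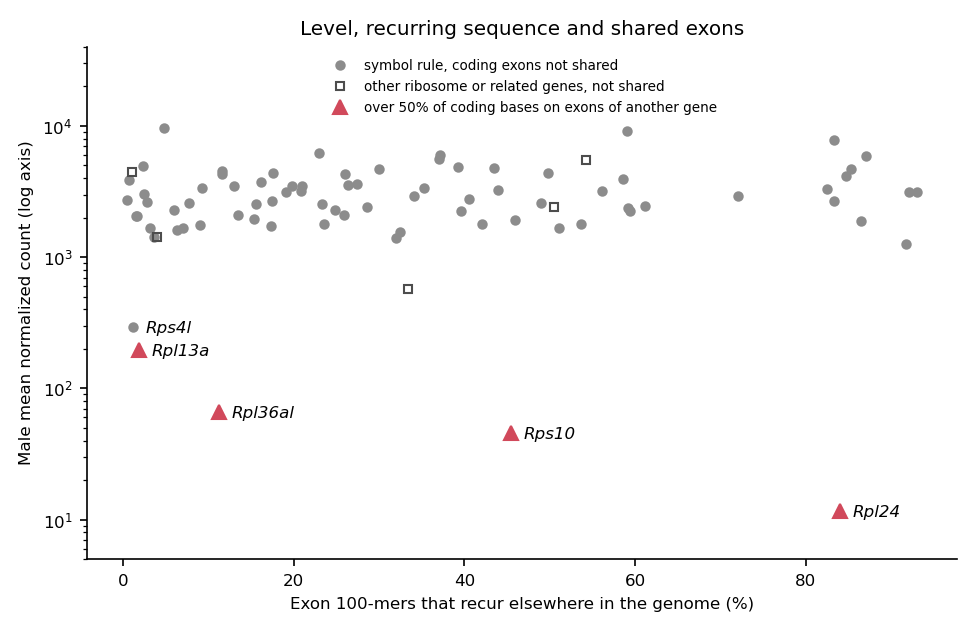
Male mean normalized count (log axis) of each protein-coding gene of the symbol rule and of 6 other ribosome or related genes, for genes with a mean of at least 3, against the share of their exon 100-mers found elsewhere in the genome. The 4 genes with over 50% of their coding bases on exons of another gene (triangles) lie between 11.6 and 196.5 at shares from 1.90% to 84.1%. Members with shares above 80% lie above 1000, but members had to reach a mean of 100 in both sexes. Rpl24, with the share of 84.1%, is not a member.

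The methods counted uniquely mapped reads, so sequence copies elsewhere in the genome were measured too, and their part in the counts was not tested. Each canonical transcript was cut into all its 100-base words, and a word recurs where the same letters stand elsewhere in the genome on either strand. The share of recurring words had a median of 26.2% over the 76 members and 0.594% over 10074 protein-coding genes with means of at least 100. The share was above 10% in 58 of the 76 members (76.3%) and in 6.24% of those protein-coding genes, and above 50% in 19 members (25%) against 1.38%.

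Rpl23a had the highest share, 93.1%, with a mean of 3129 in males. Rps6, the small subunit protein that S6 kinase phosphorylates, followed with 92.1% and a mean of 3154. Rpl36a had 91.8% and Rpl7a 87.1%, with male means of 1250 and 5920. At the other end, Rpl32 had 0.394%, Rps3 0.719% and Rps4l 1.13%. Across the 76 members the Spearman correlation between this share and the male level per kb of coding sequence was 0.03, a description over genes that share the same libraries. Against the male level per kb of all annotated exons it was 0.24, and 0.19 without Rpl13a and Rps4l. Reads from copies that differ in a few bases can still be told apart, and the reads themselves were not used here. The most copied 100-base word of the Rps2 transcript stands at 19 other places of the genome. A coding stretch of Rps2 within a single exon is shown because its gene had the second highest mean. These 100 bases stand at 16 other places of the genome.
Rps2 (GRCm39, chr17:24940165-24940264, plus strand): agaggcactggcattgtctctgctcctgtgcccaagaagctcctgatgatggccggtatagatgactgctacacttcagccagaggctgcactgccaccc
The 322 ribosomal protein pseudogene rows with an -ps symbol in the male table summed to 1468 normalized counts, which is 0.602% of the members' sum. Pseudogenes named otherwise, such as Rpl32l and Rpl6l, are not in this sum. Of these rows 180 were above 0, 2 reached a mean of 100, and the highest was 170.

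Levels between genes were compared per kb, and on the coding scale the longest annotated coding sequence of each gene was used. Divided by the union of all annotated exons, the median male level was 1004 normalized counts per kb over the members and 118 over all protein-coding genes with means of at least 100. In females these medians were 921 and 118. All members but Rpl13a lay above the protein-coding median in both sexes (75 of 76).

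Rplp1, one of the acidic stalk proteins that recruit elongation factors, had the highest level per kb of exons, 6143 in males and 5463 in females. Rps2 followed with 5005 and 4665, Rpl10 with 3593 and 3439, Rpl8, a protein near the peptidyl transferase centre, with 3399 and 2982, and Rpl4 with 3334 and 3181. Rpl13a, whose count is not read as a transcript level, had the lowest value in both sexes, 77.4 and 59.5. Next were Rpl37, with 183 in males and 166 in females, and Rps4l, with 220 and 152, so that Rpl37 was the lower of both in males and Rps4l in females. Further members of the lowest 5 were Rps15a with 247 and 240 and Rps28, one of the shortest proteins of the small subunit, with 296 and 279.

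The order differed with the length used. Rpl37 has 7812 exon bases against 291 coding bases, and Rps15a has 6729 against 390. Rplp1 has 587 exon bases and 342 coding bases. Per kb of the canonical transcript Rpl37 and Rps15a had 233 and 321 in males. Per kb of coding sequence Rpl37 stood at 4901 and Rps15a at 4261 in males, where the members' quartiles were 4744 and 7240 and their median was 6007.

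On the coding scale the members were more alike. The upper quartile was 1.53 times the lower quartile in males and in females alike, against 2.92 and 2.80 times per kb of exons, and against 5.47 and 5.38 times over protein-coding genes on the coding scale. In each sex 69 of the 76 members lay in the top 10% of protein-coding genes on this scale. Rpl41, the shortest ribosomal protein, had the highest level on this scale, 22835 in males and 20205 in females, with a longest annotated coding sequence of 138 bases. The place among all genes depends on the length used. Per kb of exons in males, Rpl36 was number 46 of the 76 members and ranked 1081 among genes with means of at least 100.

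The small subunit members had the higher median per kb of exons, 1264 in males and 1160 in females, against 819 and 763 for the large subunit. Per kb of coding sequence the medians were 6177 and 5843 for the small and 5438 and 5051 for the large subunit. The large over small ratio of the male medians was thus 0.647 by exons and 0.880 by coding sequence, and the 2 sets of genes overlapped over most of their range.

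**Figure D3:**
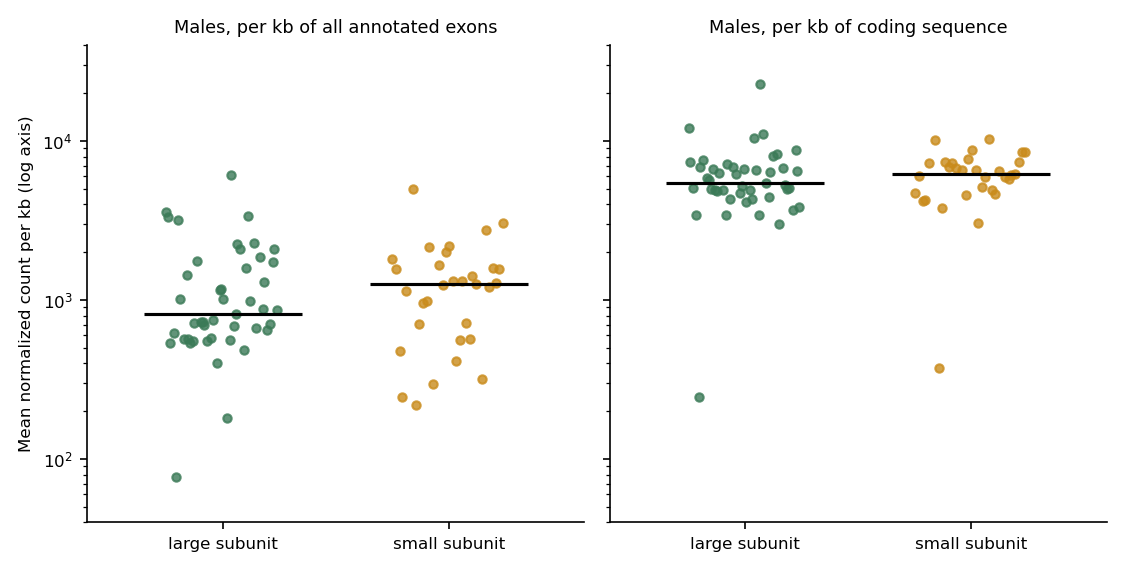
Male mean normalized count per kb (log axis) of the 45 large and 31 small subunit genes, per kb of all annotated exons on the left and per kb of coding sequence on the right. Points are genes and bars are medians. The spread is narrower on the coding scale, where Rpl13a and Rps4l alone fall below 1000.

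The stalk of the large subunit is built of Rplp0 and of pairs of Rplp1 and Rplp2. Per kb of coding sequence Rplp1 had 10543 in males and 9377 in females. Rplp0, the base of the stalk, had 6504 and 5828, and Rplp2 had 4994 and 4628. Rplp1 was the highest of the 3 in both sexes and Rplp2 the lowest.

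Rpl5 and Rpl11 bind 5S rRNA and, when ribosome assembly stalls, hold the p53 regulator Mdm2. Their coding levels lay close together, at 4847 and 4908 per kb in males and 4436 and 4661 in females. Their male means were 4319 for Rpl5 and 2783 for Rpl11.

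Genes whose human orthologs are mutated in Diamond-Blackfan anaemia, an inherited failure of red cell production, were 19 of the symbol rule, of which 18 were members and Rps10 was not. Their median coding level was 5022 per kb in males, with 3064 for Rps19, the gene most often affected, and 10386 for Rps24. Of the genes for the shortest proteins, Rpl41, Rps27, Rps29 and Rpl38 had 22835, 8817, 8515 and 8259 per kb of coding sequence in males. Rpl37a was the lowest of these 7 at 5827.

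Several members have a paralog, and the pair differed in most cases. Rpl3 had a male mean of 4673 against 2.14 for the muscle form Rpl3l, Rpl10 had 7789 against 0 listed for Rpl10l, and Rpl39 had 1622 against 0.276 for Rpl39l. Rps4x had 4753 in males and 4674 in females, against 293 and 203 for Rps4l, which per kb of coding sequence is 15.5 and 22.0 times more. The canonical coding sequences of Rps4x and Rps4l were identical in 79.7% of aligned positions. Rpl22, which mice can live without, had 2069 and 2182, against 575 and 493 for Rpl22l1. Rpl7 had 5631 and 5682 against 1434 and 1253 for Rpl7l1.

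Rps27 and Rps27l were the pair nearest in level. Rps27 had a mean of 2381 in males and 2218 in females, and Rps27l, a target of p53, had 2051 and 1831. The male mean of Rps27 was 1.16 times that of Rps27l. Per kb of the longest annotated coding sequence, 270 bases for Rps27 and 315 for Rps27l, the multiples were 1.35 in males and 1.41 in females. These larger multiples partly reflect the unequal annotated lengths. Their coding sequences are shown because they show where reads of the pair differ: both have 252 bases without the stop codon, and 60 of these differ (capitals), which leaves 76.2% identity. Both are joined from the coding exons of the canonical transcript in GRCm39, within genes at chr3:90119819-90120977 on the minus strand and chr9:66853340-66856808 on the plus strand.
Rps27: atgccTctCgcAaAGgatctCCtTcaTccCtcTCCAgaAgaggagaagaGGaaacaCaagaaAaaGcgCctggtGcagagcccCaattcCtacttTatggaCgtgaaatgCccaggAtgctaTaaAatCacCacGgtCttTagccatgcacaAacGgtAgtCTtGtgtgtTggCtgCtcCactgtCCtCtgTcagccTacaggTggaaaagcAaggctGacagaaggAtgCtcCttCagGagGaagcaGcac
Rps27l: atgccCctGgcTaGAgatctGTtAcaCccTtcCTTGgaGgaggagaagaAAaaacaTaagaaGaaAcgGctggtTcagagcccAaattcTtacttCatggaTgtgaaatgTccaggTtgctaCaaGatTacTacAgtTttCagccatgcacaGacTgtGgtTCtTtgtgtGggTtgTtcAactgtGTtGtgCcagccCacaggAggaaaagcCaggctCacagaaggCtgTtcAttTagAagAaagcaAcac
The share of recurring 100-base words was 59.2% for Rps27 and 1.64% for Rps27l.

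The means of the 2 sexes were compared as a ratio of female to male, with no test because each sex has 1 pooled value per gene. The members had a median ratio of 0.937, with quartiles of 0.896 and 0.966. The female mean was below the male mean in 71 of the 76 members, against 48.6% of all 10793 genes with means of at least 100. Over all these genes the median ratio was 1.00 and the quartiles were 0.905 and 1.13. Among the 4079 other genes with means of at least 1000 in both sexes, which are closer to the members in level, 53.1% had the lower mean in females and the median was 0.992.

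The ratio varied little from member to member. The interquartile range was 0.0708 over the members, against 0.183 for the other genes with means of at least 1000. In 2 of the 76 members, Rps4l and Rpl13a, the higher mean exceeded the lower one by at least 25%, against 23.0% of all genes. Both had the lower mean in females, as 9.39% of all genes did by that margin. At a fold of 1.1 the count was 25 of 76, all lower in females, against 55.9% of all genes in either direction, and at a fold of 1.5 it was 0, against 7.38%.

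**Figure D4:**
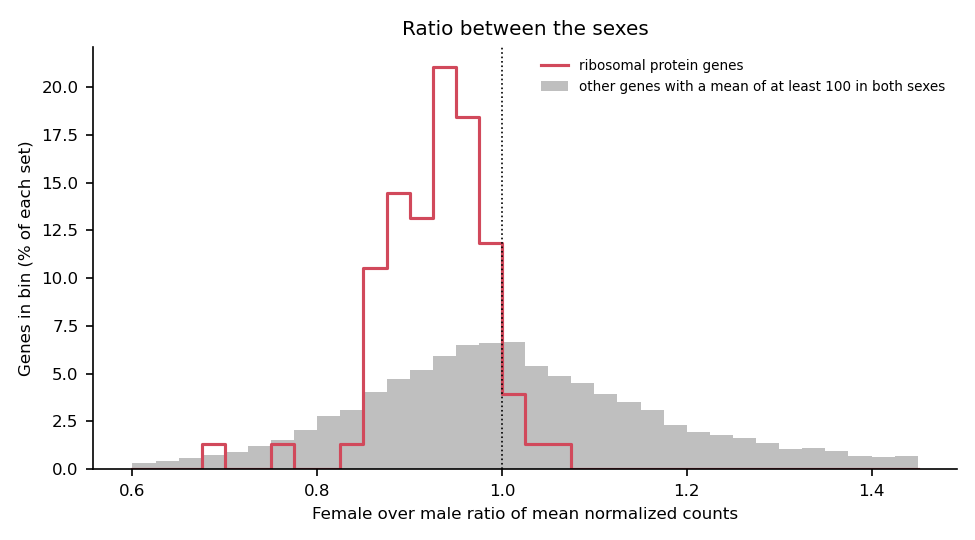
Distribution of the female over male ratio of mean normalized counts for the 76 ribosomal protein genes (line) and for 10717 other genes with means of at least 100 in both sexes (bars), as a percent of each set per bin. 7.37% of the other genes lie outside the plotted range. The members form a narrow peak just below 1, with Rps4l and Rpl13a to its left.

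Rps4l had the lowest ratio, 0.694, and Rpl13a had 0.768. Both are the members of lowest count, and Rpl13a is the member with shared coding exons. Rps14, a small subunit protein near the mRNA channel, had 3503 in males and 2959 in females, a ratio of 0.845. Rpl13 had 3299 and 2845 (0.862), and Rpl18 had 2458 and 2127 (0.865).

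A ratio above 1 was found in 5 members, all of the large subunit. Rpl22 had 2069 in males and 2182 in females (1.05), and Rpl21 had 3195 and 3342 (1.05). Rpl7, Rpl3 and Rpl17 had 1.01 each, with male means of 5631, 4673 and 4854. All 31 small subunit members and 40 of the 45 large subunit members had the lower mean in females, and the median ratios of the subunits were 0.938 and 0.936.

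The 4 X-linked members had ratios between 0.957 and 0.987: Rpl10 0.957, Rpl39 0.978, Rps4x 0.983 and Rpl36a 0.987. Counted from the highest ratio, they ranked between 10 and 25 among the 76. Their median was 0.981, against 0.932 for the other members. The 286 other X-linked genes with means of at least 100 had a median ratio of 1.05, against 1.00 for other genes on all other chromosomes.

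GC content moved with the ratio. Across the 76 members the Spearman correlation of the ratio with the GC content of the canonical transcript was -0.43 (Pearson's r of the log2 ratio -0.37), and without Rpl13a and Rps4l it was -0.41. The 26 members with the lowest GC, 41.3% to 49.2%, had a median ratio of 0.962, the 25 in the middle 0.936, and the 25 with the highest GC, 53.4% to 58.8%, 0.894. Over 9998 other genes the same correlation was -0.16, and over 4024 other genes with means of at least 1000 it was -0.09. These are descriptions across genes that share the same libraries, and the part of GC content in the ratio was not tested. Transcript length and the share of recurring words had correlations of 0.02 and 0.10 with the ratio.

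**Figure D5:**
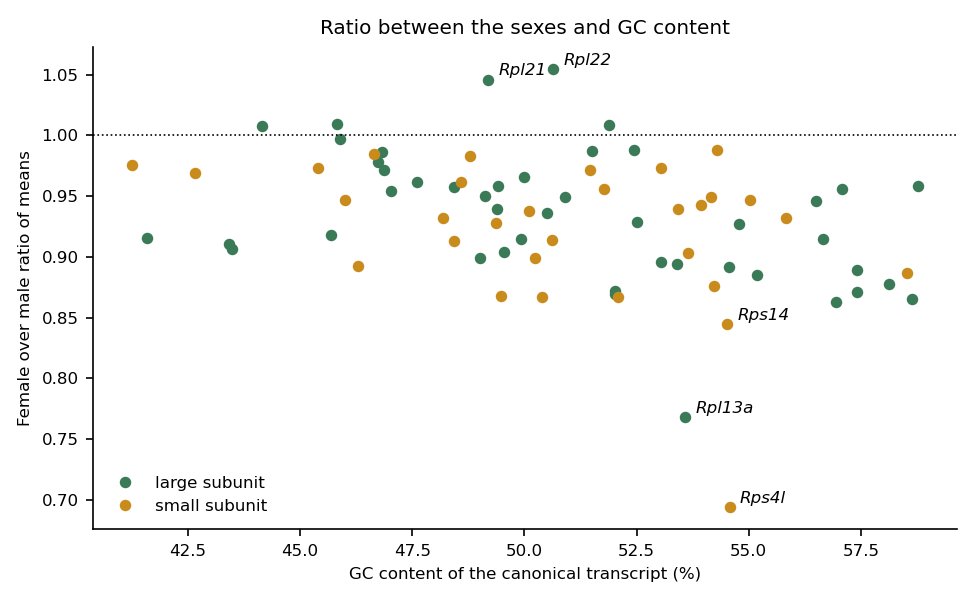
Female over male ratio of mean normalized counts against the GC content of the canonical transcript for the 76 ribosomal protein genes, coloured by subunit. Ratios go from a median of 0.962 in the 26 genes of lowest GC content to 0.894 in the 25 of highest, with wide scatter.

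The other genes of translation were described by lists. Of 36 ribosome biogenesis genes, all with means of at least 100, 36 had the lower mean in females, with a median ratio of 0.825, and in 13 the male mean exceeded the female mean by at least 25%. Among them Nop56, a core protein of the rRNA-modifying snoRNPs, had 671 in males and 437 in females, and Ncl, the nucleolar protein nucleolin, had 6888 and 5887. Of 32 translation initiation factors 28 had the lower mean in females, with a median ratio of 0.953. Eif2s3x, an X-linked subunit of eIF2, had the highest ratio of these, 1.57, with 1487 in males and 2331 in females. Of 8 other mRNAs with a known TOP motif 6 were lower in females, with a median of 0.956, from Pabpc1, the poly(A)-binding protein, with 9333 in males and 7735 in females, to the splicing factor Hnrnpa1 with 1768 and 2209. Eef1a1, which brings tRNAs to the ribosome, had 76179 and 72732.

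Mitochondrial ribosomal proteins, which build a separate ribosome, numbered 78 with means of at least 100 in both sexes. They had a median coding level of 800 per kb in males, against 6007 for the cytosolic members. The female mean was lower in 53 of the 78, with a median ratio of 0.959, and 4 differed by at least 25%. Of 13 regulators of ribosomal protein mRNA 8 had the lower mean in females, with a median ratio of 0.917. Larp1, which binds TOP motifs, had 6868 in males and 7376 in females, and Rps6kb1, an S6 kinase, had 1957 and 1498. Eif4ebp1, which encodes an inhibitor of the cap-binding factor eIF4E, had 611 and 439, while its paralog Eif4ebp2 had 11065 and 11453.

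The tissue label was checked with marker genes. The 10 hepatocyte markers ranged from 43404 (Serpina1a) to 1.73e+06 (Alb) in males and from 38633 to 2.33e+06 in females. Their female over male ratios went both ways, from 0.630 (Tat) to 1.35 (Alb). Of the 10, 6 were lower in females, and the median ratio was 0.962. The 5 lymphocyte markers were all below 50, and 2 of 5 cholangiocyte and 5 of 6 erythroid markers reached 100 in both sexes. Markers of other liver cells differed between the sexes to varying degrees. Of 5 stellate cell markers with means of at least 100, 5 were higher in females (ratios 1.22 to 1.42). The summed mean over the 6 of that list was 9788 in males and 12729 in females. Of the 5 erythroid markers 4 were higher in females (ratios 1.15 to 1.41), while Alas2, the heme synthesis enzyme of red cells, had 2685 in males and 569 in females. Over the 6 of that list the sums were 6792 and 6071. Of 6 endothelial markers 5 were higher in females, with a median ratio of 1.16 and sums of 11145 and 12683. Of 6 Kupffer cell markers 5 were higher in females, with sums of 9154 and 9615. Their median ratio was only 1.01, against 1.00 over all genes, and Adgre1, Csf1r and Timd4 had ratios of 1.00 to 1.02. The 2 cholangiocyte markers that reached 100 had ratios of 0.854 (Sox9) and 1.15 (Spp1). The part of cell composition in the ratio of the ribosomal protein genes was not tested, and in whole tissue fewer cells of a type cannot be told apart from less RNA per cell.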

How the data were processed

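The authors sequenced rRNA-depleted, strand-marked total RNA libraries as paired reads, aligned them to GRCm39 with STAR 2.7, counted uniquely mapped reads per gene with HTSeq and fitted WT against Midn-T within each sex with DESeq2, per the labels and methods. The deposited tables hold, per gene, a mean normalized count over the 6 samples of a sex, which is a signal scaled by the authors for library depth, together with the fold changes, errors, statistics and p-values of the authors' own comparison. These last columns, and the ATAC-seq peak lists that result from a comparison, were not used. Per-sample counts and depths were not analysed here. The tables of the sexes (56884 and 18149 genes) were joined on gene ID.

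Gene structure came from GENCODE M39, in which 76 of 76 members and 56323 of 56884 listed genes were found. The release used by the authors was another one. Canonical transcripts were cut into words of 100 bases and compared with the whole genome with numba 0.67.0. Exon sharing counted canonical coding bases on same-strand exons of genes with over 300 exon bases. Tables were handled with pandas 2.3.3 and coding sequences aligned with Biopython 1.88. Ratio and word counts were tested on simulated data. The members, lists, motifs and thresholds were chosen with earlier results of these data known. Named members are the 5 highest and 5 lowest per kb and by ratio, those next to the minimum mean, X-linked members, stalk, 5S and short-protein genes and paralog pairs. Alternatives covered the minimum mean, the scaling between the sexes, the fold, the length, the word size and the gene set of the sum.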

Additional observations from a re-analysis of the deposited data

How the results depend on the processing

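No paired analysis was possible because the deposited means pool the replicates of both genotypes, and for the same reason no replicate could be left out in turn. Of 18 alternatives, 9 left the value unchanged within 1.5 times (counts) or to the third digit (other values). With a minimum mean of 50 the members stayed at 76 and with 1000 they fell to 74, and without the row with shared coding exons there were 75. Scaling the sexes to the same sum gave a median ratio of 0.921 and scaling to a median ratio of 1 gave 0.932, with 74 and 71 members lower in females and 2 differing by at least 25% in both. A fold of 1.1 gave 25 members and a fold of 1.5 gave 0. The large over small subunit ratio of the median level per kb was 0.647 by exon union, 0.778 by the longest coding transcript, 0.880 by coding length, 0.703 by canonical transcript and 0.615 over the 18 members with at most 10% recurring words. Words of 50 bases gave a median recurring share of 42.7%. Canonical length, the scalings of the count of lower members, and the removal of the row with shared exons were chosen after seeing the data.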
